A study of Mus musculus with 16 samples.

Results

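Genes of the 4 kinds of epithelial cell-cell junction were followed in cultured mouse hepatic progenitor cells with and without Ptpn1, the gene of the protein tyrosine phosphatase PTP1B. The members were the protein-coding genes whose symbols name them as claudins (Cldn), cadherins with a number (Cdh), desmogleins (Dsg), desmocollins (Dsc), plakophilins (Pkp1 to Pkp4), zonula occludens proteins (Tjp1 to Tjp3) and connexins (Gja, Gjb and Gjc), together with occludin (Ocln), desmoplakin (Dsp), plakoglobin (Jup) and F11r. The rule used names and biotype alone and found 82 of the 55421 genes in the table. They comprised 28 tight junction genes, 23 cadherins, 15 desmosome genes and 16 gap junction genes.

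The study sequenced total RNA, depleted of ribosomal RNA, from hepatic progenitor cells of Ptpn1+/+ mice (here WT) and Ptpn1-/- mice (here KO). Each genotype was left as a control or given palmitic acid, a saturated fatty acid, at 400 µM for 8 h, with 4 libraries in each of the 4 groups. Growth medium was DMEM with fetal bovine serum, and palmitic acid was given in DMEM with less serum and with bovine serum albumin. The medium of the controls, the origin of a group's 4 libraries (separate cultures or not) and the number of lines per genotype are left unsaid in the labels. P-values therefore rest on differences among these libraries that may be purely technical, and the genotype and the cell line that carries it cannot be told apart. Unless the controls had the same medium, palmitate cannot be told apart from the lower serum and the albumin given with it. The library protocol in the labels speaks of fixed tissue and RNA of low quality, although the samples are labelled as cells.

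Each junction type joins cells in its own way. At tight junctions, claudins, occludin and the JAM-A protein made from F11r seal the gap between neighbouring epithelial cells, and zonula occludens proteins tie them to actin. At adherens junctions, classical cadherins bind across the gap and hold actin through catenins, while desmosomal cadherins (desmogleins and desmocollins) hold keratin filaments through plakoglobin, plakophilins and desmoplakin. Connexins form the channels of gap junctions. In the liver, hepatocytes carry both E-cadherin (Cdh1) and N-cadherin (Cdh2) and couple mainly through the connexins encoded by Gjb1 and Gjb2, whereas Gja1 encodes the connexin typical of non-parenchymal cells.

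The values were the authors' normalized counts per gene, and the libraries held between 21553952 and 35693442 reads counted on genes. Ptpn1 itself checked the labels: its level in KO libraries was 17.0% of the WT level in controls (330 ± 16 against 1937 ± 39.0 normalized counts, SD, n = 4 each) and 15.8% under palmitate, and the groups did not overlap (exact permutation test, two-sided, p = 0.0286 in each, the smallest that 70 assignments allow). The first principal component held 85.4% of the variance and separated the genotypes, and palmitate and control libraries separated along the second, with 3.25%. Progenitor and biliary markers were present, with Krt19 at a mean of 3407 and Sox9 at 342 normalized counts in WT controls, but Epcam had no read in WT and a mean of 1.77 in KO controls. Markers of other cell types moved with the genotype: 7 of 8 measured hepatocyte markers and 8 of 9 biliary and progenitor markers were higher in KO controls, and 10 of 10 measured stellate, fibroblast and mesenchymal markers were lower. Of 3 measured leukocyte markers, 2 were higher. These counts stand beside 37.8% of all tested genes higher in KO controls and 39.3% lower. The summed level of the hepatocyte list ran from 1345 to 1422 normalized counts in WT controls and from 46321 to 49545 in KO controls, with no member at 0 in all libraries. Apob alone averaged 26706 in KO controls. Not all of this list shifted. Cps1 and Asgr1 stayed below the filter, with means of 0.26 and 0.475 in WT controls and 0.80 and 0.475 in KO controls. Tat averaged 47.8 in WT and 48.65 in KO controls. The summed level of the mesenchymal list ran from 204642 to 220313 in WT and from 33417 to 35138 in KO controls, with Lrat at 0 throughout. Endothelial markers summed to no more than 43.3 in any library. The part of these shifts in the junction results was not tested, and in bulk RNA fewer cells of a type and less RNA per cell cannot be told apart.

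Of the 82 members, 42 reached at least 10 normalized counts in at least 4 libraries and were tested: 10 of 28 tight junction genes, 12 of 23 cadherins, 13 of 15 desmosome genes and 7 of 16 gap junction genes. Since a gene could pass through the group in which it was high, counts over the 42 describe these genes and not the whole family. A further 17 members had no read in any library. They included the claudins Cldn3, Cldn5, Cldn7, Cldn8, Cldn11, Cldn13, Cldn22, Cldn23 and Cldn24, the cadherins Cdh7, Cdh8, Cdh9, Cdh12 and Cdh20, and connexins such as Gja3 and Gjb6. A count of 0 allows up to 3 reads among the 440297018 gene reads of the 16 libraries, and this limit covers counting error only. No desmosome gene was without reads. The other 23 members had reads but stayed below the filter, and the highest single value among them was 16.7 for Cldn4, a claudin common in ducts and other barrier epithelia, in 1 WT palmitate library. Cldn4 had 33 reads over the 4 WT controls and 59 over the WT palmitate libraries, against 6 and 5 in the KO groups. Gjb5 had 24 and 17 reads in the WT groups and 12 and 1 in the KO groups, in the same order of control and palmitate.

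Levels were compared between genes as normalized counts per kilobase of exon. Summed over members, cadherins had the highest level in every group, Cdh16 included. Their sum was 7835 ± 56.1 per kilobase in WT controls (SD, n = 4), followed by tight junction genes with 4826 ± 72.4, desmosome genes with 2499 ± 35.4 and connexins with 908 ± 54.4. In KO controls the 4 sums were 12277 ± 97.1, 7686 ± 134, 6663 ± 129 and 1892 ± 48.9, so that every type was higher than in WT without overlap of libraries. A few abundant genes weigh most in such sums, and a higher sum does not mean that most members were higher. Among cadherins, Cdh1 averaged 502 per kilobase in WT controls and 4280 in KO controls. The order of the 4 sums was the same in all groups. Cdh16, which is outside the classical cadherins, held 45.0% of the cadherin sum in WT controls and 48.2% in WT palmitate libraries. Without it the WT cadherin sums would fall below the WT tight junction sums, so the order in WT rested on this gene. Under palmitate the KO sums for cadherins and desmosomes were 12122 ± 140 and 6706 ± 213, with libraries that overlapped the KO controls. The KO tight junction sum was 7192 ± 188 under palmitate, below every KO control. In WT the cadherin sum was 8048 ± 52.2 under palmitate, above every WT control, and the gap junction sum was 773 ± 6.66, below every WT control. The WT means of Cdh16 and Cdh6 rose with palmitate, while those of Cdh1 and Cdh2 fell.

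Between the genotypes in control medium, 37 of the 42 tested members differed at an adjusted p under 0.05 (limma, two-sided, Benjamini-Hochberg over 15239 genes), beside 77.1% of all genes tested. Of these, 21 were higher in KO and 16 lower, beside 37.8% and 39.3% of all genes. Most genes of the table differed between the 2 genotypes, so a call alone says little about the members. At least a 2-fold difference was found for 10 members higher and 10 lower, beside 10.4% and 11.7% of all genes. The median size of the difference, regardless of sign, was 0.91 on the log2 scale over the tested members and 0.40 over all genes tested. By type, 5 tight junction genes were higher and 3 lower of 10, cadherins divided 5 to 5 of 12, desmosome genes 6 to 6 of 13, and connexins 5 to 2 of 7. The median signed difference was 0.32 for tight junctions, -0.04 for cadherins, 0.48 for desmosomes and 0.51 for gap junctions, against -0.01 for all genes. Plakoglobin and Pkp4 also sit at adherens junctions. Counted there, they turned the desmosome median to -1.37 and the cadherin median to 0.20. With cadherins held to the classical types I and II, 5 were higher and 3 lower of 9, with a median of 0.42. Placing Gjb2, which had no WT reads, at its lower bound left the gap junction median at 0.51. The calls of Cldn15 and Gjc1 were among those lost in some alternatives, and 33 calls were kept in each alternative that tested them.

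**Figure D1:**
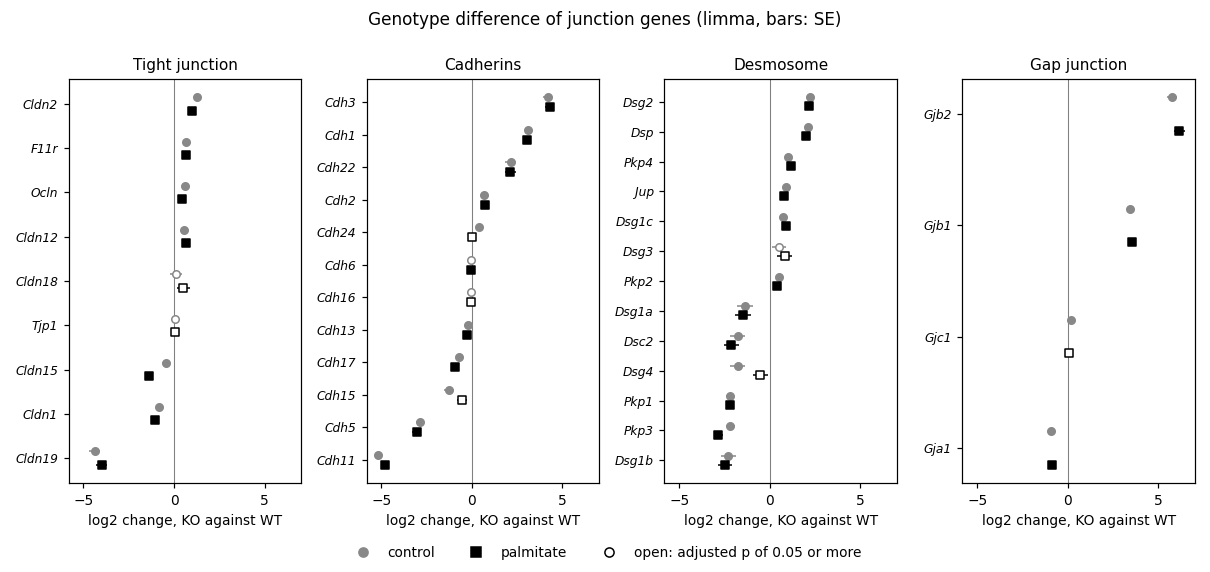
Log2 change of 38 tested junction genes in KO against WT (x axis), with genes in rows grouped by junction type, grey circles for control and black squares for palmitate, and bars for the standard error. Open symbols did not pass an adjusted p of 0.05. Cdh3, Cdh1, Gjb1 and Gjb2 lie far to the right and Cdh11, Cdh5 and Cldn19 far to the left in both treatments.

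E-cadherin, the classical epithelial cadherin (Cdh1, chr8:106603351-106670246, plus strand, GRCm38), showed a large genotype difference at a high level. It read 2289, 2455, 2301 and 2133 normalized counts in the WT controls and 19757, 19919, 19410.0 and 19216 in the KO controls. Every KO library was far above every WT library. The change was 3.09 ± 0.04 on the log2 scale (SE, adjusted p = 7.38e-30), and 3.04 ± 0.04 under palmitate. P-cadherin (Cdh3, chr8:106510891-106557297), which neighbours Cdh1 on the same strand, was scarce in WT with 11.1, 5.45, 8.36 and 12.9 normalized counts and read 214, 163, 177 and 172 in KO controls. The groups were apart here too, and the change was 4.18 ± 0.24 (adjusted p = 1.98e-14). Only 3 WT libraries reached 10 normalized counts, so Cdh3 passed the filter through KO libraries, which favoured this direction.

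N-cadherin (Cdh2, chr18:16588877-16809246), a cadherin of mesenchymal and neural cells that hepatocytes also make, was higher together with E-cadherin. Its level was 13864, 13427, 13583 and 13469 in WT controls and 21554, 21673, 21649 and 21071 in KO controls, so that it was higher in every KO library, by 0.66 ± 0.02 on the log2 scale (adjusted p = 3.78e-20). Per kilobase of exon, the ratio of Cdh1 to Cdh2 was 0.298 ± 0.018 in WT controls (SD, n = 4), where N-cadherin exceeded E-cadherin, and 1.61 ± 0.018 in KO controls, where the order was the other way round. Palmitate left the ratio at 0.325 ± 0.008 in WT and 1.60 ± 0.091 in KO.

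The cadherins lower in KO included 2 typical of other cell types. Cadherin 11 (Cdh11, chr8:102632095-102785642), known from mesenchymal cells and fibroblasts, read 1683, 1580, 1641 and 1661 in WT controls and 39.4, 42.5, 53.8 and 44.6 in KO controls. The ranges did not meet, and the change was -5.16 ± 0.07 (adjusted p = 1.29e-29). VE-cadherin (Cdh5, chr8:104101625-104144511), the cadherin of endothelial junctions, read 75.1, 68.1, 68.0 and 78.7 in WT controls against 10.5, 9.72, 8.37 and 7.60 in KO, a change of -2.88 ± 0.22 (adjusted p = 2.02e-12). Cdh5 reached 10 normalized counts in only 2 KO libraries and so passed the filter through WT libraries. Of the 8 endothelial markers 6 were below the filter, with Tie1 at 0 in all libraries, and their summed level was 15.1 to 19.1 in WT controls and 18.1 to 43.3 in KO controls. Cdh17, the liver-intestine cadherin, was lower by 0.71 ± 0.09 on the log2 scale.

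2 of the 4 most abundant cadherins hardly differed between genotypes. Cdh16, known as the kidney-specific cadherin, was the highest cadherin of WT controls with 3527 ± 24.3 normalized counts per kilobase, and its log2 change in KO was -0.04 ± 0.03 (adjusted p = 0.116, 95% interval -0.10 to 0.01). Cdh6, a type II cadherin of renal and other developing epithelia, changed by -0.03 ± 0.03 (adjusted p = 0.425). Of the summed cadherin level per kilobase, Cdh16 made up 45.0% in WT controls and 27.9% in KO controls, and Cdh1 6.40% and 34.9%. The share of Cdh2 was 21.5% and 21.7%.

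**Figure D2:**
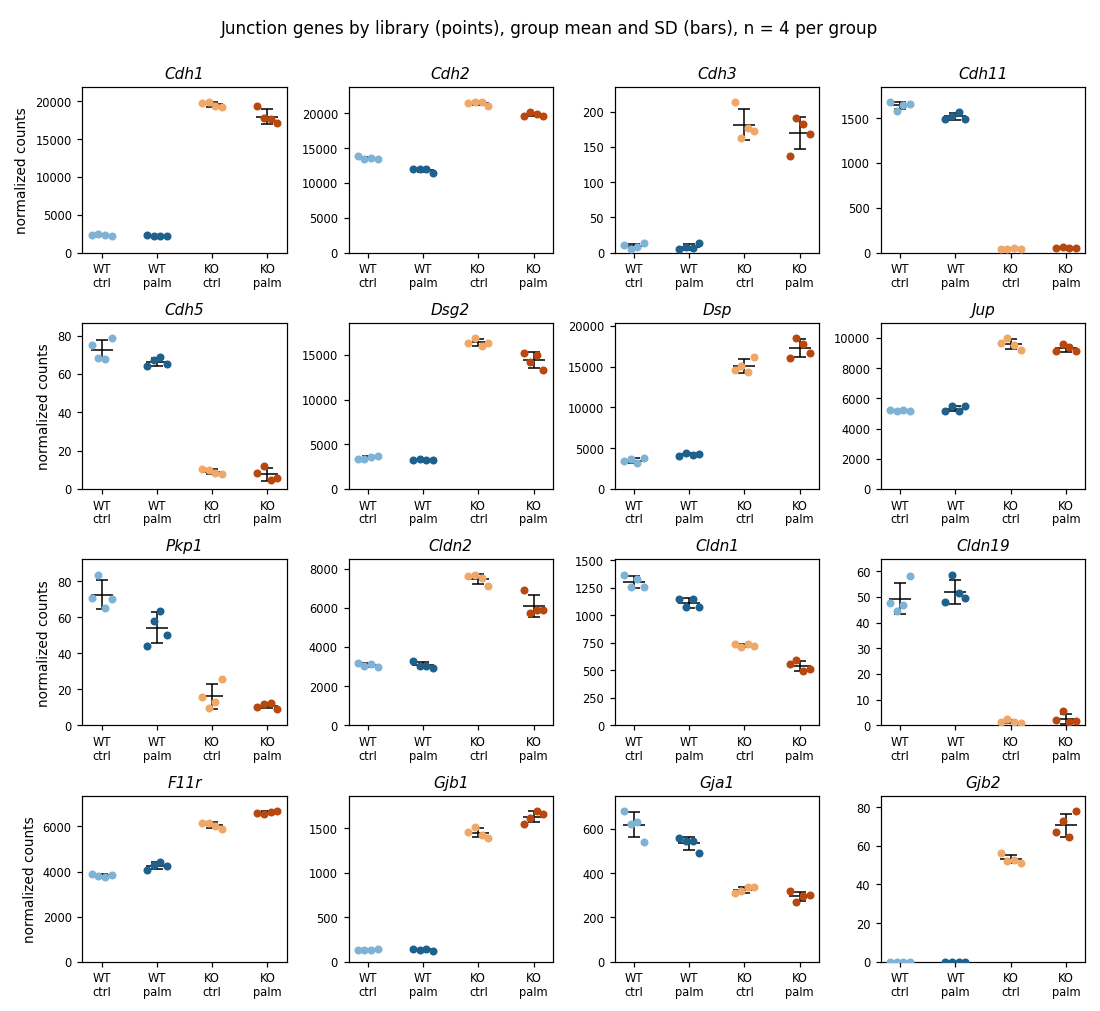
Normalized counts (y axis, linear, from 0) of 16 junction genes in each library, in the order WT control, WT palmitate, KO control and KO palmitate, with black bars for the group mean and SD, n = 4. The genotypes separate in all panels, and Gjb2 stands at 0 in every WT library. In group means the step between control and palmitate is smaller than the step between genotypes, but not always by far. Cldn2 in KO averages 7488 in controls and 6101 with palmitate.

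The 2 core desmosome genes Dsg2 and Dsp were several times higher in KO. Desmoglein 2 (Dsg2, chr18:20558074-20604521), the desmoglein of simple epithelia, read 3322, 3366, 3566 and 3649 in WT controls and 16358, 16865, 15986 and 16369 in KO controls, a change of 2.24 ± 0.04 (adjusted p = 4.55e-28). Desmoplakin (Dsp, chr13:38151294-38198577), which links the plaque to keratin filaments, read 3371, 3636, 3177 and 3728 in WT and 14548, 15108, 14320 and 16194 in KO, a change of 2.11 ± 0.05 (adjusted p = 4.74e-16). No KO library came near the WT range for either gene. The keratins that desmosomes hold in simple epithelia, Krt8 and Krt18, were abundant in both genotypes, with means of 22022 and 19241 normalized counts in WT controls and of 33840 and 28216 in KO controls, and the libraries did not overlap for either gene.

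The plaque genes Jup, Pkp4 and Pkp2 differed less. Plakoglobin (Jup) went from 5187 ± 42.6 to 9601 ± 318 normalized counts (0.89 ± 0.03 on the log2 scale, adjusted p = 3.18e-21), Pkp4 (chr2:59160850-59355208) from 3766 ± 141 to 7553 ± 93.9 (1.00 ± 0.03, adjusted p = 8.79e-23) and Pkp2, the plakophilin of simple epithelia and heart, from 1101 ± 45.6 to 1539 ± 37.9 (0.48 ± 0.04). Each was higher in all 4 KO libraries. The ratio of Dsg2 to Pkp2 per kilobase was 2.05 ± 0.142 in WT and 6.91 ± 0.092 in KO controls, so the desmosomal genes did not keep their proportions. Exons of Dsp and Dsg2 overlap those of the opposite-strand genes Gm10129 and Gm16090, and the sources used here do not state whether counting used strand. The 2 partners had at most 24.5 and 4.75 normalized counts in any library.

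Plakophilin genes of lower level were lower in KO. Plakophilin 1 (Pkp1, chr1:135871395-135919207), best known from stratified epithelia, read 70.9, 83.6, 64.8 and 70.1 in WT controls and 15.7, 9.72, 13.2 and 25.6 in KO controls, a change of -2.18 ± 0.22 (adjusted p = 6e-10). Pkp3, another plakophilin of epithelia, read 42.7, 50.9, 41.8 and 46.3 in WT controls and 5.25, 9.72, 9.57 and 14.3 in KO controls, a change of -2.18 ± 0.24 (adjusted p = 4.11e-09). The library ranges of both genes were apart. Pkp3 reached 10 normalized counts in only 2 KO libraries and so passed the filter through WT libraries. Dsc2, Dsg1a, Dsg1b and Dsg4 were also lower, with WT control means from 9.39 to 16.4 normalized counts, and Dsc2 rested on 7 reads over the 4 KO controls. No KO library of these 4 genes reached 10 normalized counts, so they passed the filter through WT libraries alone, which favoured this direction. Dsg1c, also scarce, was higher in KO by 0.71 ± 0.18 on the log2 scale. Dsg1a, Dsg1b and Dsg1c are close copies, so reads may have been divided wrongly between them, and their values are uncertain. Dsg3 did not pass (adjusted p = 0.266).

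Gap junction genes changed both in level and in make-up. Gjb1 (chrX:101376378-101385629), the main hepatocyte connexin gene, read 131, 130, 136 and 143 in WT controls and 1459, 1519, 1425 and 1396 in KO controls, a change of 3.42 ± 0.06 (adjusted p = 2.75e-28). Gjb2 (chr14:57098600-57104702), whose product joins that of Gjb1 in hepatocyte channels, had no read in any of the 8 WT libraries and 56.4, 52.3, 52.6 and 51.3 normalized counts in KO controls. With 3 reads over the WT control group as the limit that a count of 0 allows, it was at least 73.4-fold higher in KO controls, and at least 112-fold higher under palmitate. Its adjusted p was 1.13e-16 in controls, but it passed the filter through KO libraries alone, which favoured this direction.

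Gja1 (chr10:56377330-56402513), the connexin gene typical of non-parenchymal liver cells, read 680, 621, 633 and 541 in WT controls and 308, 320, 337 and 335 in KO controls. It was lower in every KO library, by 0.92 ± 0.07 on the log2 scale (adjusted p = 2.89e-13). Gjb1 held 8.75% of the summed connexin level per kilobase in WT controls and 44.9% in KO controls, Gjc1 13.9% and 7.49%, and Gja1 6.64% and 1.68%. Among these 3 connexin genes the order of levels per kilobase was Gjc1 (126 ± 5.47), Gjb1 (79.1 ± 3.64) and Gja1 (60.3 ± 5.64) in WT controls, and Gjb1 (849 ± 30.9), Gjc1 (141.5 ± 5.71) and Gja1 (31.7 ± 1.34) in KO controls. Neighbours in both orders stood apart by more than their SDs.

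**Figure D3:**
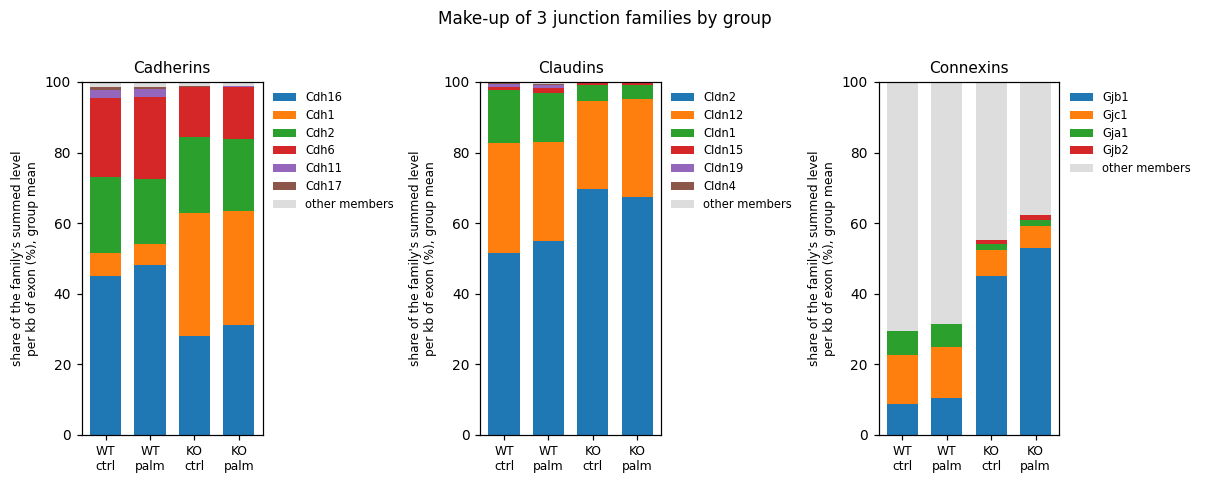
Share of each gene in the summed level per kilobase of exon of its family (y axis, percent, group means, n = 4) for cadherins, claudins and connexins in the 4 groups, with the remaining members together in grey. Cdh1, Cldn2 and Gjb1 take larger shares in both KO groups than in both WT groups.

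Among tight junction genes, the pore-forming claudin Cldn2 (chrX:139800828-139811386), which lets cations and water through, read 3160, 3003, 3123 and 2988 in WT controls and 7629, 7693, 7504 and 7124 in KO controls. Every KO library was above every WT library, and the change was 1.29 ± 0.05 (adjusted p = 3.96e-15). Claudin 1 (Cldn1, chr16:26356642-26371841), a sealing claudin of hepatocytes and bile ducts, was lower, with 1371, 1256, 1329 and 1255 in WT and 741, 713, 736 and 726 in KO controls, a change of -0.84 ± 0.05 (adjusted p = 3.49e-15). Cldn2 made up 51.6% of the summed claudin level per kilobase in WT controls and 69.8% in KO controls, Cldn1 15.1% and 4.67%, and Cldn12 30.9% and 24.9%. Cldn12 itself was higher in KO by 0.54 ± 0.04 on the log2 scale.

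Claudin 19 (Cldn19, chr4:119255414-119262438), known from kidney and Schwann cells, was near its lower limit in KO. It read 47.8, 44.5, 47.1 and 58.2 in WT controls and 1.31, 2.43, 1.2 and 0.95 in KO controls, which together held 5 reads, and its change was -4.38 ± 0.31 on the log2(value + 1) scale (adjusted p = 1.86e-13). No KO library reached 10 normalized counts, so Cldn19 passed the filter through WT libraries alone, which favoured this direction. The other transmembrane components were higher in KO: F11r by 0.66 ± 0.03, from 3826 ± 64.6 to 6056 ± 124 normalized counts, and occludin by 0.59 ± 0.08, from 156 ± 12.5 to 234 ± 22.8. The scaffold gene Tjp1 changed by 0.04 ± 0.03 (adjusted p = 0.273, 95% interval -0.02 to 0.10). Tjp3 had 10 reads in all 16 libraries.

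Under palmitate the genotypes differed in 33 of the 42 members, again beside 77.1% of all genes. Of these, 19 were higher and 14 lower in KO, beside 38.1% and 39.0%. 32 members passed in both treatments, which is 86.5% of the 37 and 97% of the 33, and all 32 kept their direction, 19 higher and 13 lower. Over all genes the overlap was 90.3% of each set, with the same direction in 99.4%. Cdh15, Cdh24, Dsg4 and Gjc1 were among those that passed in controls but not under palmitate, and for Cdh6 it was the other way round. The call of Cdh6 was lost in 10 alternatives, where its adjusted p reached 0.296. The 2 sets of libraries do not overlap, but they share the cells of each genotype. 

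The members with large differences in controls stood apart under palmitate as well. Cdh3 read 5.01, 7.97, 6.02 and 14 in WT and 137, 190.2, 182 and 168 in KO palmitate libraries (4.28 ± 0.24 on the log2 scale), and Cdh11 read 1494, 1522, 1567 and 1493 in WT against 51.9, 56.5, 55.6 and 50.2 in KO (-4.80 ± 0.07). For Gjb1 the WT values were 145, 133, 146 and 125 and the KO values 1546, 1618, 1695 and 1658 (3.56 ± 0.06). None of these ranges met. Gjb2 read 67.2, 72.8, 64.5 and 78.0 in KO with no read in WT.

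Under palmitate the desmosome genes Dsg2 and Dsp were higher by 2.14 ± 0.04 and 2.02 ± 0.05 on the log2 scale, and Pkp1 and Pkp3 changed by -2.20 ± 0.22 and -2.84 ± 0.24. Among claudins the log2 change was 1.00 ± 0.05 for Cldn2, -1.04 ± 0.05 for Cldn1 and -4.0 ± 0.31 for Cldn19. Cldn15 (chr5:136966616-136975858), a pore-forming claudin of the intestine, changed by -0.46 ± 0.20 in controls and -1.38 ± 0.20 under palmitate, where WT libraries read 43.1, 62.3, 53.3 and 57.8 and KO libraries 16.3, 27.2, 15.6 and 23.2. The latter ranges were apart.

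Other genes of the junctions were read from a list of genes outside the rule. The counts that follow stand beside the 37.8% of all tested genes that were higher in KO controls and the 39.3% that were lower. Of 14 measured tight junction genes, 8 were higher and 6 lower in KO controls, among them the adhesion receptor Esam (3.40 ± 0.18), Jam3 (-3.09 ± 0.21) and Jam2 (2.09 ± 0.20). Of 9 adherens junction genes, 5 were higher and 3 lower, led by the nectin gene Nectin1 (3.22 ± 0.09), the neural catenin gene Ctnna2 (-1.59 ± 0.21) and beta-catenin, Ctnnb1 (1.37 ± 0.03). Ctnnb1 went from 22466 ± 417 to 58106 ± 825 normalized counts, with no overlap of libraries. All 3 further desmosome genes were higher in KO controls, Evpl by 2.08 ± 0.14, Perp by 1.13 ± 0.04 and Ppl by 0.17 ± 0.05. For Ppl the libraries of the genotypes overlapped in both treatments. Under palmitate Ppl was called lower in KO, with means of 10939 against 12037 normalized counts in WT. Of 8 measured transcription and splicing factors of epithelial or mesenchymal state, 2 were higher and 5 lower, with Twist1 (-4.72 ± 0.26), Snai1 (-4.48 ± 0.24) and Snai2 (-1.99 ± 0.07) the 3 with the largest change, and Zeb1 at -0.01 ± 0.04. Snai1, a repressor known to bind E-boxes in the Cdh1 promoter, had a mean of 176 ± 10.5 normalized counts over the WT controls and 7.61 ± 3.49 over the KO controls. All changes in this paragraph are on the log2 scale with SE.

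Because Snai1 and its relatives bind the E-box CACCTG, the promoters were read for these letters on both strands. On the opposite strand they read CAGGTG. RefSeq's table on GRCm38.p6, with 250 bases before and 50 after each start, held 50 of the 82 members, and Cdh1 was not among them. The E-box was found in 15 of the 50 (30.0%) and in 22.6% of 27025 genes with a promoter in the table, and ACCGGT, the core of the grainyhead site, in 1 of 50 (2.0%) and 2.7% of genes. Of the 15 members, 6 were tested (Dsp, Pkp4, Gjb1, Gjb2, F11r and Ocln), and the 6 were higher in KO controls, though Gjb2 passed the filter through the KO libraries alone. Gjb1 held the E-box in 1 of its 4 windows and Pkp4 in 1 of its 2. Cldn4, below the filter, held 2 E-boxes and had fewer reads in KO (6 against 33 in controls). Of the 13 tested members with no E-box in the window, 5 were higher, 5 lower and 3 did not pass. Over all tested genes with a promoter in the table, 42.9% of the 2229 with an E-box were higher in KO controls and 38.3% lower, against 38.6% and 42.0% of the 8565 without one. A match is a description of the letters and not a site of binding, and a role of Snai1 in these differences was not tested. The promoters below are those of 3 of the higher members with an E-box, in capitals, of Cldn4, and of 2 lower members without one, and were chosen after their values were seen. No higher member without an E-box is printed. They run 5′ to 3′ on the gene's strand, from 250 bases before the start to 20 after, and the first base of the E-box lies at 4 for Dsp, -9 for Gjb2, -122 for F11r, and -14 and 12 for the pair in Cldn4, counted from the start.
Dsp (chr13:38151044-38151313, plus strand): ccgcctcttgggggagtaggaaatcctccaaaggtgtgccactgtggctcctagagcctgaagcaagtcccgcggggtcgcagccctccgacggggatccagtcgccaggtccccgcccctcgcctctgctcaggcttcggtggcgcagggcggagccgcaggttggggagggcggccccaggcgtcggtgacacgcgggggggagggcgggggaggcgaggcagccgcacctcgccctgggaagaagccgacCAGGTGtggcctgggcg
Gjb2 (chr14:57104683-57104952, minus strand): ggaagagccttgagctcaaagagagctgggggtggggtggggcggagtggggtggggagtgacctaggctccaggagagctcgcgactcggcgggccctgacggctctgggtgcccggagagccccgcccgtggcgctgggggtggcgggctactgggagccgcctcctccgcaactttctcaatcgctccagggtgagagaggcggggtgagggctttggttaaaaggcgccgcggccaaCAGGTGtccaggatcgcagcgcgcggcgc
F11r (chr1:171437311-171437580, plus strand): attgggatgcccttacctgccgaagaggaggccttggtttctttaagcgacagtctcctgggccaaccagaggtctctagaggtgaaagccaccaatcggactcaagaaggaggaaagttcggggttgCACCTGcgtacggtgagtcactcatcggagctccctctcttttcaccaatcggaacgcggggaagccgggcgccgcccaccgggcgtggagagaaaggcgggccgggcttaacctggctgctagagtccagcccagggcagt
Cldn4 (chr5:134946915-134947184, minus strand): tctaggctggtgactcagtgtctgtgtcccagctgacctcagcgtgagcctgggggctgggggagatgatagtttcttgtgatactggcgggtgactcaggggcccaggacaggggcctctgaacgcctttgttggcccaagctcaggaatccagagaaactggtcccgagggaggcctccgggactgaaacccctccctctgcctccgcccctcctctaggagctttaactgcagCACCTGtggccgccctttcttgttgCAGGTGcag
Gja1 (chr10:56377050-56377319, plus strand): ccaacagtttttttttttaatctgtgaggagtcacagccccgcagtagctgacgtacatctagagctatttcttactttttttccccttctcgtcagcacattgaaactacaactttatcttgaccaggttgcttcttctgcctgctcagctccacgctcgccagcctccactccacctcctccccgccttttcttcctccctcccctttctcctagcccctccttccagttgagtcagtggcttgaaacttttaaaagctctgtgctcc
Cldn1 (chr16:26371820-26372089, minus strand): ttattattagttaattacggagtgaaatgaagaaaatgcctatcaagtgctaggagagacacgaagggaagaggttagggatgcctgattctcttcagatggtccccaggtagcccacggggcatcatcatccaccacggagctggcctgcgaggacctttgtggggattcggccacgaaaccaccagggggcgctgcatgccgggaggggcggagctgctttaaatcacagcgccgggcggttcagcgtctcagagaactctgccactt

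Fewer members differed between palmitate and control libraries, and by less. In WT cells 16 of the 42 members passed, beside 37.6% of all genes, with 7 higher and 9 lower, beside 17.7% and 19.9%. In KO cells 20 passed, beside 39.1%, with 7 higher and 13 lower, beside 18.7% and 20.4%. Both shares of members are near the background. The median size of the change regardless of sign was 0.19 on the log2 scale in each genotype, against 0.14 over all genes. By type, WT cells had 2 tight junction genes higher and 3 lower, 3 cadherins higher and 2 lower, 1 desmosome gene in each direction, and 1 connexin higher and 3 lower. KO cells had 1 tight junction gene higher and 6 lower, 2 cadherins higher and 3 lower, and 2 in each direction among both desmosome genes and connexins. When all libraries were scaled to the same total, the higher share of all called genes in WT went from 47.1% to 61.8%, while the members in WT numbered 8 higher and 8 lower.

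12 members passed in both genotypes, which is 75% of the 16 and 60% of the 20, and these 12 moved in the same direction in each. Over all genes, those that passed in both were 64.9% of the genes called in WT and 62.4% of those called in KO, and 95.8% of them moved in the same direction. Higher in both were, among others, Dsp, F11r and Cdh16. Lower in both were, among others, Cdh17, Cldn1, Cldn12, Cdh2, Gjc1, Tjp1 and Dsg2. The KO fall of Cldn12 was lost in 9 alternatives. Without KO palmitate replicate 1 it was -0.047 on the log2 scale (limma, adjusted p = 0.23).

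The liver-intestine cadherin Cdh17 was lower with palmitate in both genotypes. It read 326, 303, 304 and 294 in WT controls and 272, 251, 232 and 215 in WT palmitate libraries, a change of -0.34 ± 0.09 (adjusted p = 0.00453), and 173, 174, 240.5 and 168 in KO controls against 127, 129, 127 and 126, a change of -0.55 ± 0.09 (adjusted p = 2.94e-05). All palmitate libraries were below all controls of their genotype. Desmoplakin rose, by 0.30 ± 0.05 in WT (adjusted p = 0.000358) and 0.20 ± 0.05 in KO (adjusted p = 0.00786), whereas Dsg2, its partner in the desmosome, fell by 0.09 ± 0.04 and 0.19 ± 0.04 on the log2 scale. In KO the palmitate libraries read 16059, 18475, 17814 and 16691 for Dsp, of which 1 lay below the highest control. The WT fall of Dsg2 was small and was lost in 12 alternatives. Claudin 1 fell by 0.23 ± 0.05 in WT and 0.43 ± 0.05 in KO, to 1114 ± 42.8 and 541 ± 46.3 normalized counts, with no overlap with controls. F11r rose by 0.15 ± 0.03 and 0.13 ± 0.03. The cadherin Cdh24 rose in WT, from 110.1, 122, 105 and 126 to 138, 144, 173 and 129 normalized counts, by 0.33 ± 0.10 (adjusted p = 0.011), and without WT palmitate replicate 3 its adjusted p was 0.0708.

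**Figure D4:**
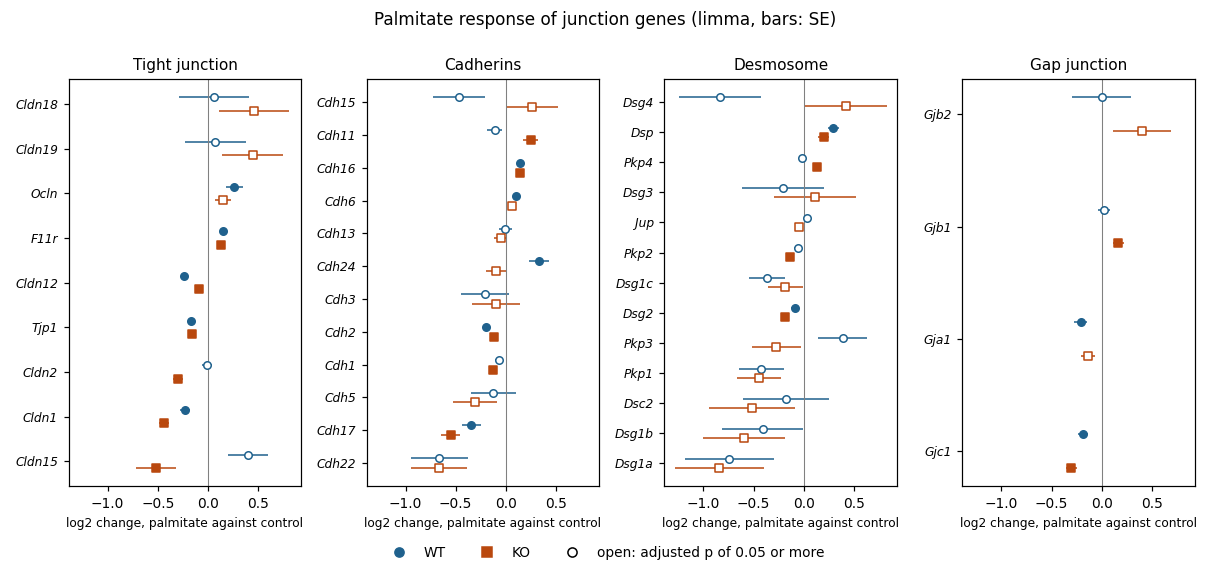
Log2 change of 38 tested junction genes with palmitate against control (x axis), with genes in rows by junction type, blue circles for WT, orange squares for KO, and bars for the standard error. Open symbols did not pass an adjusted p of 0.05. Cdh17 lies at -0.34 in WT and -0.55 in KO, the largest change passing the test in each genotype among the genes drawn.

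The difference between the 2 responses was tested by itself as KO minus WT. It passed for 4 of the 42 members, beside 9.9% of all genes, with 2 higher and 2 lower, beside 4.19% and 5.71%. These shares too are near the background. Scaled to the same total, the higher share of all genes called in this test went from 42.3% to 30.0%, and the members called lower numbered 4. Leaving out 1 library gave 1 to 3 members in each direction. Cldn2 changed by -0.01 ± 0.05 in WT and fell by 0.30 ± 0.05 in KO, where palmitate libraries read 6920, 5714, 5897 and 5871, all below the KO controls. The difference was -0.29 ± 0.07 (adjusted p = 0.00992). Pkp4 changed by -0.02 ± 0.03 in WT and rose by 0.13 ± 0.03 in KO, to 8226, 8472, 8403 and 7958, a difference of 0.15 ± 0.04 (adjusted p = 0.0169). These 2 calls held in each alternative that was run. Cldn15 changed by 0.40 ± 0.20 in WT and fell by 0.52 ± 0.20 in KO, at levels of 20.6 to 54.1 normalized counts in the 4 group means, a difference of -0.91 ± 0.28 (adjusted p = 0.0353). Cdh11 changed by -0.11 ± 0.07 in WT and rose by 0.25 ± 0.07 in KO, where it read 51.9, 56.5, 55.6 and 50.2 with palmitate, a difference of 0.36 ± 0.10 (adjusted p = 0.0252). The calls of Cldn15 and Cdh11 were lost in 12 and 7 alternatives, and adjusted p without single libraries reached 0.0829 and 0.0582. For Cdh11 the count tests gave an adjusted p of 0.126 (edgeR) and 0.145 (DESeq2). The KO rise of Cdh11 was also lost in these count tests (adjusted p = 0.216 with edgeR and 0.237 with DESeq2). The KO fall of Cldn15 was lost in 10 alternatives, among them DESeq2 (adjusted p = 0.124). Cldn1, which fell in both genotypes, missed the threshold for a difference (-0.21 ± 0.07, adjusted p = 0.0532, 95% interval -0.34 to -0.07).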

How the data were processed

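Total RNA from 16 libraries of cultured hepatic progenitor cells, 4 per group, was depleted of ribosomal RNA and sequenced in paired-end mode, per the labels' protocols. The authors deposited 1 table of normalized counts per gene, here treated as a signal. STAR, RSEM, DESeq2 and limma are named in the submitters' processing notes without versions, and the genome build, annotation and strandedness of counting were not given in the sources used here. In each library 100% of values were whole multiples of 1 read's worth within 0.1 read, so whole reads could be recovered. Since the deposited values are normalized, the main test was limma 3.58.1 in R 4.3.3 on log2(value + 1), with the 4 group means in 1 model, trend and robust settings, a filter of 10 in at least 4 libraries, and Benjamini-Hochberg adjustment over 15239 genes at 0.05. Differences of low genes are understated on this scale. Count tests on the recovered reads called 11758 (edgeR 4.0.16) and 11476 (DESeq2 1.42.0) genes between genotypes in controls, against 11744 by limma. Other alternatives were the pseudocount, the filter, the scaling, the 2 groups alone, a replicate block and leaving out each library. Exon lengths and gene coordinates came from GENCODE vM21 (GRCm38), in which all 82 members had an exon length, and promoters came from RefSeq on GRCm38.p6. The limma test was tried on simulated libraries for 1 comparison, palmitate against control in WT. It recovered 70% of 1.2-fold, 84% of 2-fold and 100% of 4-fold changes, with 50 genes at each size. The other comparisons were not simulated.

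The members and gene lists were chosen with earlier results of these data known. The genes given in full were those whose higher group averaged 50 or more and that had a called genotype difference of at least 1 on the log2 scale, the 3 largest called palmitate changes in each genotype, and the members with a called difference of responses. Cdh2 and Gja1 did not meet these rules and were also given library by library. Other junction genes were named by the 3 largest called changes per type. Keratins and the promoters printed were chosen after their values were seen. Some members enter the counts, medians and sums but are not reported here by name or drawn. Junction types are described by counts and medians, without a test of the lists.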

Additional observations from a re-analysis of the deposited data

Results flagged for a closer look

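In 8 of 152 sets of 4 libraries (38 members in 4 groups), 1 library lay far from the other 3, where chance flags about 1 in 20 sets. In WT palmitate, Cdh2 read 11437.57 in replicate 4 against 11958.77 to 11988.78 in the others. KO palmitate replicate 1 held 2 such values, with Cldn2 at 6920.39 against 5714.34 to 5897.13 and Cldn12 at 2905.71 against 3262.72 to 3296.9. In KO controls, Cdh17 read 240.46 in replicate 3 against 168.11 to 173.77, and Ocln read 267.84 in replicate 4 against 218.73 to 226.92. The scarce desmoglein gene Dsg4 stood apart in 3 groups, at 6.83 in WT control replicate 1 against 16.73 to 18.32, at 16.02 in WT palmitate replicate 1 against 4.95 to 6.02, and at 9.78 in KO palmitate replicate 2 against 3.34 to 4.07.

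The palmitate response differed between genotypes for 4 members by the interaction term of the limma model, KO minus WT on the log2 scale. The differences were 0.362 for Cdh11, -0.914 for Cldn15, -0.291 for Cldn2 and 0.146 for Pkp4.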

How the results depend on the processing

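The genotype counts in controls (21 members higher, 16 lower) kept within 1.5 times of these values in each alternative except a filter of 50, which left 10 lower. With 1 library left out they ran from 20 to 21 higher and from 12 to 16 lower. Under palmitate the same ranges were 18 to 19 and 12 to 15. The palmitate counts ran from 6 to 7 higher and 8 to 9 lower in WT, and from 5 to 7 higher and 11 to 14 lower in KO. For the difference of responses (2 higher, 2 lower), no filter left 1 in each direction, and 4 were lower with the same total, with quantile normalization and with the replicate block. Leaving out 1 library gave 1 to 3 in each direction. Higher members were 1 without WT control 1, WT palmitate 2 or 4, or KO control 1, and 3 without WT control 4 or KO palmitate 1. Lower members were 1 without WT control 2 or 3, WT palmitate 2 or 3, or KO control 1 or 3, and 3 without WT control 1 or KO palmitate 1 or 2. The cause was not tested. Ptpn1 in KO ran from 16.64% to 17.31% of WT in controls and from 15.59% to 16.06% under palmitate with 1 library left out, where the exact p of 0.05714 is the smallest that 3 against 4 libraries allow. No called member reversed its direction in these alternatives. Scaling to the same total moved the median log2 change of all genes between genotypes to -0.085 in controls and -0.110 under palmitate, from -0.008 and -0.011.

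Replicate numbers are shared by the 4 groups, but the labels do not say what they mark, and same-numbered libraries did not deviate together (correlations from -0.111 to 0.061, median -0.001). With the replicate block the counts were 21 higher and 15 lower between genotypes in controls, 19 and 14 under palmitate, 7 and 8 for palmitate in WT, 7 and 13 in KO, and 3 and 4 for the difference of responses. Depth limits the 40 members below the filter and the WT level of Gjb2, where a count of 0 allows 3 reads over a group.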
